A study of Mus musculus with 16 samples.

Results

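The 6 genes described here carry iron between cells, move it across membranes and store it: transferrin (Trf), the transferrin receptor (Tfrc), the divalent metal transporter Slc11a2, the exporter ferroportin (Slc40a1), and the heavy and light chains of ferritin (Fth1 and Ftl1). They were chosen by name, and all probes whose transcript accession mapped to these names were used. Of the 18745 named genes on the array, these 6 were covered by 8 probes, 3 of them for Slc11a2 and 1 for each of the other 5 genes. All 8 probes were well above background on all 16 arrays, and none was saturated on any array. Their scanner signals were unequal, from 49800 to 193000 for Fth1, 434 to 4010 for Ftl1 and 19.9 to 252 for Slc11a2.

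In the brain, iron bound to transferrin enters cells through the transferrin receptor, leaves endosomes through Slc11a2, is stored in shells of ferritin chains and is exported by ferroportin. Iron regulatory proteins bind short hairpins in the mRNAs of several of these genes, so that the protein can change where the mRNA does not. Oligodendrocytes make transferrin, contain much ferritin and are the cells of the white matter that stain most strongly for iron.

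Male C57BL/6 mice of 7 to 8 weeks of age were fed chow with cuprizone (CPZ), a copper chelator that causes loss of oligodendrocytes and myelin in the corpus callosum. The dose was 0.2% in the methods of the study and 0.2 to 0.4% in the sample labels. Total RNA of the corpus callosum, cut out of brain sections, was hybridised to single-colour Agilent mouse arrays. The groups were untreated controls on a normal diet (3 arrays), matched in age and sex to the 4-week group, mice after 2 weeks of CPZ (3 arrays), mice after 4 weeks of CPZ (4 arrays), and mice returned to regular diet after 4 weeks of CPZ (6 arrays), which stand for remyelination. All mice were wild type, and none of the groups carried a transgene. According to the methods, the last group held mice after 2 days and mice after 2 weeks of regular diet. The labels do not separate these times, so the 6 arrays were kept as the 1 group that the labels give, and its spread holds any difference between the times. The labels number the arrays as replicates without naming the animals, so the p-values below measure the spread between arrays.

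The array behind a sample differs between the scanner files and the processed table. Each of the 16 table columns correlated with 1 array at r = 1.0 over 21976 probes and with any other array at 0.8829 or less. In 14 cases that array's file is recorded for a different sample, and in 13 for a different group. The values below follow the table, whose columns are named by sample, and values under the recorded assignment are given beside several of the differences. The median of 11 oligodendrocyte markers, in log2 units relative to the untreated median, was 0.39, 0 and -0.68 on the untreated arrays by the table and between -4.88 and -1.71 on the 7 CPZ arrays, and on the 6 regular-diet arrays it ranged from -3.88 to 0.52. On the arrays recorded for the same samples it was 0.39, -3.48 and -1.97 for untreated samples, -0.12, 0.52 and -1.71 for 2 weeks, 0, -3.57, -0.68 and -0.13 for 4 weeks, and -4.65, -3.88, -2.99, -1.94, -2.84 and -4.88 for regular diet. Between 57.3 and 72.2% of the probes were well above background on an array. On the array, 11 of 11 oligodendrocyte markers, among them Mbp, Mog and Mag, were bright enough to be tested. So were 8 of 8 markers each of neurons, astrocytes, endothelium and choroid plexus, so this brightness does not identify the tissue.

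Values are given in log2 units relative to the median of the 3 untreated arrays, probe by probe, so 1 unit is a doubling and the untreated median is 0. A difference was called when its Benjamini-Hochberg adjusted p from limma was under 0.05 over all probes tested and the change was at least 2-fold. None of the 8 probes was called in any of the 5 comparisons made. In the whole tissue, fewer cells of a type and less RNA per cell cannot be told apart.

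Transferrin, the carrier, varied most of the 6 genes. Trf stood at 0.31, 0 and -0.42 on the untreated arrays. After 2 weeks of CPZ it stood at 0.13, -3.4 and -1.55, and after 4 weeks at -2.54, 0.2, 0.84 and -0.68. On regular diet it ranged from -1.29 through a median of -0.43 to 0.88. At 2 weeks 1 array lay within the untreated range and 2 below it, at 4 weeks 1 lay within it, 2 below and 1 above, and every group overlapped the controls.

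The group means of Trf ran from -1.61 ± 1.77 (SD, n = 3) at 2 weeks through -0.545 ± 1.47 (n = 4) at 4 weeks and -0.36 ± 0.85 (n = 6) on regular diet to -0.04 ± 0.37 (n = 3) in untreated mice. No neighbours in this order differed beyond their spread. At 2 weeks the mean was 2.97-fold lower than in the controls, a log2 difference of -1.57 (SE 0.98, 95% interval -3.79 to 0.64, adjusted p = 0.794 by limma). It ranged from -2.44 without 2-week replicate 1 to -0.67 without 2-week replicate 2, the array lowest in Trf. Within slide 1, the 1 slide that held both groups, the difference was -1.02, and under the recorded assignment of arrays it was 1.02. At 4 weeks the difference was -0.51 (95% interval -2.58 to 1.56, adjusted p = 0.906), with 0.84 within slide 2, -2.12 within slide 3 and 0.05 under the recorded assignment. The regular-diet mean differed from the controls by -0.32 (95% interval -1.96 to 1.32, adjusted p = 0.858) and from the 4-week mean by 0.19 (95% interval -1.31 to 1.69, adjusted p = 0.886), and under the recorded assignment by -1.1 and -1.15. These intervals span more than a doubling in either direction in the comparisons at 4 weeks and on regular diet, so the arrays neither show a change of Trf nor bound it closely.

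The markers of oligodendrocytes, a main source of Trf in this tissue, were lower on the CPZ arrays. The median of 11 oligodendrocyte markers stood at 0.39, 0 and -0.68 on the untreated arrays, at -1.97, -4.88 and -3.48 at 2 weeks, and at -4.65, -1.94, -1.71 and -2.84 at 4 weeks. On the 6 regular-diet arrays it was -3.88, -3.57, -2.99, -0.12, -0.13 and 0.52. At 2 weeks 11 of 11 and at 4 weeks 10 of 11 of these markers were lower at an unadjusted p under 0.05, and 0 were called. The 2 arrays lowest in Trf, 2-week replicate 2 and 4-week replicate 1, were also the 2 lowest in these markers.

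**Figure D1:**
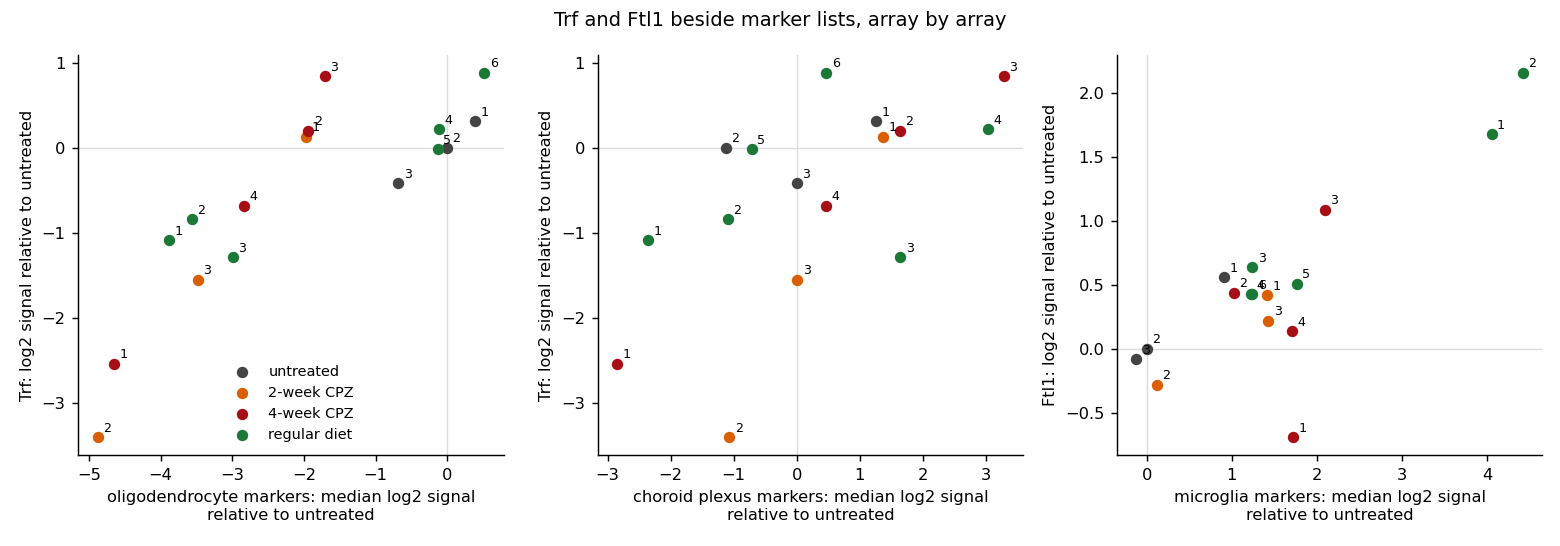
Trf against the median of the oligodendrocyte markers (left), Trf against the median of the choroid plexus markers (middle) and Ftl1 against the median of the microglia markers (right), all in log2 units relative to the untreated median, with 1 point per array, coloured by group and numbered by replicate. CPZ arrays with oligodendrocyte medians between -1.97 and -1.71 had Trf between 0.13 and 0.84, within or above the untreated range.

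Choroid plexus epithelium also makes transferrin, and its markers differed between arrays without following the groups. The median of 8 choroid plexus markers ranged from -1.13 to 1.25 on the untreated arrays, from -1.07 to 1.36 at 2 weeks, from -2.85 to 3.28 at 4 weeks and from -2.36 to 3.03 on regular diet. The 4-week array highest in Trf, replicate 3, had the highest choroid plexus median of the 16 arrays, and the 4-week array lowest in Trf, replicate 1, had the lowest. The part of these cells in the Trf values was not tested.

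Set against the oligodendrocyte markers of the same array, Trf was relatively high on CPZ. The difference between Trf and the marker median was -0.08, 0 and 0.26 on the untreated arrays, a mean of 0.06 ± 0.17. It was 2.1, 1.48 and 1.93 at 2 weeks (mean 1.83 ± 0.32) and 2.11, 2.14, 2.55 and 2.16 at 4 weeks (mean 2.24 ± 0.21), so every CPZ array lay above every untreated array. On the 6 regular-diet arrays it was 2.79, 2.73, 1.7, 0.34, 0.11 and 0.36, and 5 of 6 arrays lay above the controls. Such a ratio within an array shows unequal change of Trf and the markers, not that Trf held its level. An unchanged gene would also lie above the controls, since the marker median was between -4.88 and -1.71 on the CPZ arrays. Bcas1 likewise stood above the marker median on every CPZ array, such as -3.47 against -4.88 on 2-week replicate 2. How many other genes do so was not tested, so the pattern is not shown to be particular to Trf.

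This measure was chosen after its values had been seen, together with the ratio of the ferritin chains below, and the 6 tests of the pair of measures form 1 family. In an exact two-sided permutation test against the controls, the mean at 2 weeks was 1.77 higher (p = 0.1, the smallest p that 3 against 3 arrays allow), at 4 weeks 2.18 higher (p = 0.0571, the smallest for 4 against 3) and on regular diet 1.28 higher (p = 0.0476). After Benjamini-Hochberg adjustment none of the 6 tests was under 0.05 (0.0857 to 0.1 by the exact permutation tests). The differences within slides were 2.09 at 2 weeks, 2.55 and 1.85 at 4 weeks, and 0.42, 1.54 and 1.19 on regular diet. Under the recorded assignment they were -0.23, -0.54 and 0.75.

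**Figure D2:**
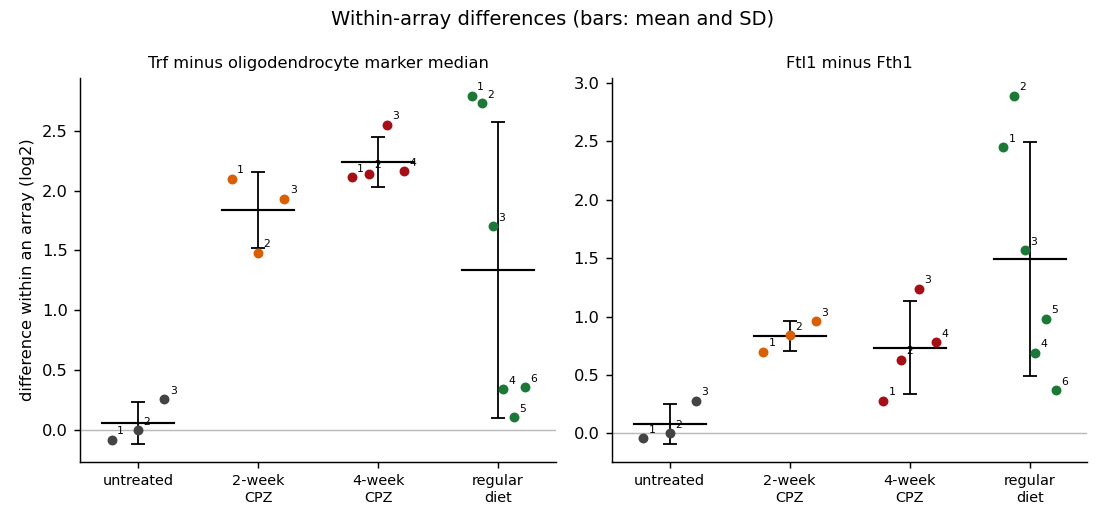
Differences within an array, in log2 units, between Trf and the median of the oligodendrocyte markers (left) and between Ftl1 and Fth1 (right), with 1 numbered point per array and bars for the mean and SD of each group. The untreated arrays sit between -0.08 and 0.28 in both panels, and all CPZ arrays are above them on the left.

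The uptake genes showed smaller spreads. Tfrc, the receptor that takes up transferrin with its iron, stood at 0, -0.3 and 0.15 on the untreated arrays, at -0.22, 0.2 and -0.03 at 2 weeks and at -0.96, 0.24, -0.3 and -0.25 at 4 weeks. On regular diet it ranged from -0.6 through a median of -0.17 to -0.01. The groups overlapped, and 4-week replicate 1 was the lowest of the 16 arrays. The difference from the controls was 0.04 at 2 weeks (95% interval -0.63 to 0.70, adjusted p = 0.982 by limma), -0.26 at 4 weeks (-0.89 to 0.36, adjusted p = 0.845) and -0.21 on regular diet (-0.71 to 0.28, adjusted p = 0.686). In each of these 3 comparisons the 95% interval lay within 2-fold in either direction.

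Slc11a2, which carries ferrous iron out of endosomes and other divalent metals across membranes, was read by 3 probes that did not move together. The brightest probe, A_51_P388737, stood at -0.15, 0.04 and 0 on the untreated arrays and at 0.54, 0.18 and 0.47 at 2 weeks. At 4 weeks it stood at -0.19, -0.79, 0.14 and -0.41. On regular diet it ranged from 0.22 through a median of 0.34 to 0.87. All 2-week and all regular-diet arrays lay above all untreated arrays, and all 4-week arrays lay below all 2-week and all regular-diet arrays.

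The group means of this probe ran from -0.31 ± 0.39 (SD, n = 4) at 4 weeks and -0.04 ± 0.10 (n = 3) in untreated mice to 0.40 ± 0.19 (n = 3) at 2 weeks and 0.41 ± 0.24 (n = 6) on regular diet. The difference of regular diet from 4 weeks of CPZ, 0.72 (SE 0.18, 95% interval 0.33 to 1.1, 1.64-fold), had the lowest p of any member probe in any comparison (adjusted p = 0.0844 by limma). It was 0.48, 0.52 and 0.89 within slides 2, 3 and 4. This difference of Slc11a2 was not called: across the alternative settings its adjusted p ranged from 0.029 to 0.786, it fell under 0.05 without untreated replicate 1 (0.0377), without 4-week replicate 1 (0.045) and without 4-week replicate 3 (0.029), and the change stayed under 2-fold in all of them. With the arrays assigned as recorded the difference was -0.36 (adjusted p = 0.786).

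The other comparisons of this probe gave 0.43 for 2 weeks against untreated (95% interval -0.12 to 0.99, adjusted p = 0.736 by limma), -0.27 for 4 weeks against untreated (adjusted p = 0.803), -0.71 for 4 weeks against 2 weeks (95% interval -1.22 to -0.19, adjusted p = 0.407) and 0.44 for regular diet against untreated (95% interval 0.03 to 0.86, adjusted p = 0.444). Under the recorded assignment, 2 weeks against untreated was -0.03, 4 weeks against 2 weeks was 0.03 and regular diet against untreated was -0.36.

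The second probe, A_52_P254298, carries the same transcript accession as the first. It stood at -0.26, 0 and 0.08 on the untreated arrays, at 0.27, 0.16 and 0.26 at 2 weeks and at 1.15, -0.5, -0.3 and 0.46 at 4 weeks, and it ranged from -0.01 to 0.75 on regular diet. Like the first probe, it was higher on all 2-week arrays than on all untreated arrays (difference 0.29, 95% interval -0.58 to 1.16, adjusted p = 0.893 by limma), but its 4-week arrays spread over the values of every other group. The remaining probe, A_52_P196476, carries another accession and ranged from -0.57 to 0.39 over all 16 arrays with every group overlapping. Between regular diet and 4 weeks of CPZ the difference was 0.72 on the first probe, 0.07 (95% interval -0.53 to 0.67) on the second and 0.31 (-0.08 to 0.71) on the remaining one, so a pattern of the gene as a whole rests on 1 of its 3 probes.

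The exporter gave its highest values on regular diet. Slc40a1, ferroportin, the known iron exporter of animal cells, stood at 0.49, -0.39 and 0 on the untreated arrays, at 0.35, 0.19 and 0 at 2 weeks and at 0.51, 0.65, 0.06 and 0.64 at 4 weeks. On regular diet it ranged from 0.13 through a median of 0.51 to 1.02. Its group means lay in the order untreated (0.03 ± 0.44, SD, n = 3), 2 weeks (0.18 ± 0.18, n = 3), 4 weeks (0.47 ± 0.28, n = 4) and regular diet (0.57 ± 0.375, n = 6), and every group overlapped the controls. The difference of regular diet from untreated was 0.54 (SE 0.24, 95% interval 0.02 to 1.05, adjusted p = 0.453 by limma), 1.45-fold, with 0.13, 1.11 and 0.62 within slides 1, 2 and 3. At 4 weeks it was 0.44 (95% interval -0.12 to 0.99, adjusted p = 0.646) and at 2 weeks 0.15 (-0.45 to 0.74, adjusted p = 0.913). Without untreated replicate 2, the array lowest in Slc40a1, the differences on regular diet, at 4 weeks and at 2 weeks were 0.33, 0.22 and -0.07, and without untreated replicate 1 they were 0.77, 0.66 and 0.37. With normexp they were 0.18, 0.2 and 0.05, and under the recorded assignment 0.24, -0.06 and 0.08.

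**Figure D3:**
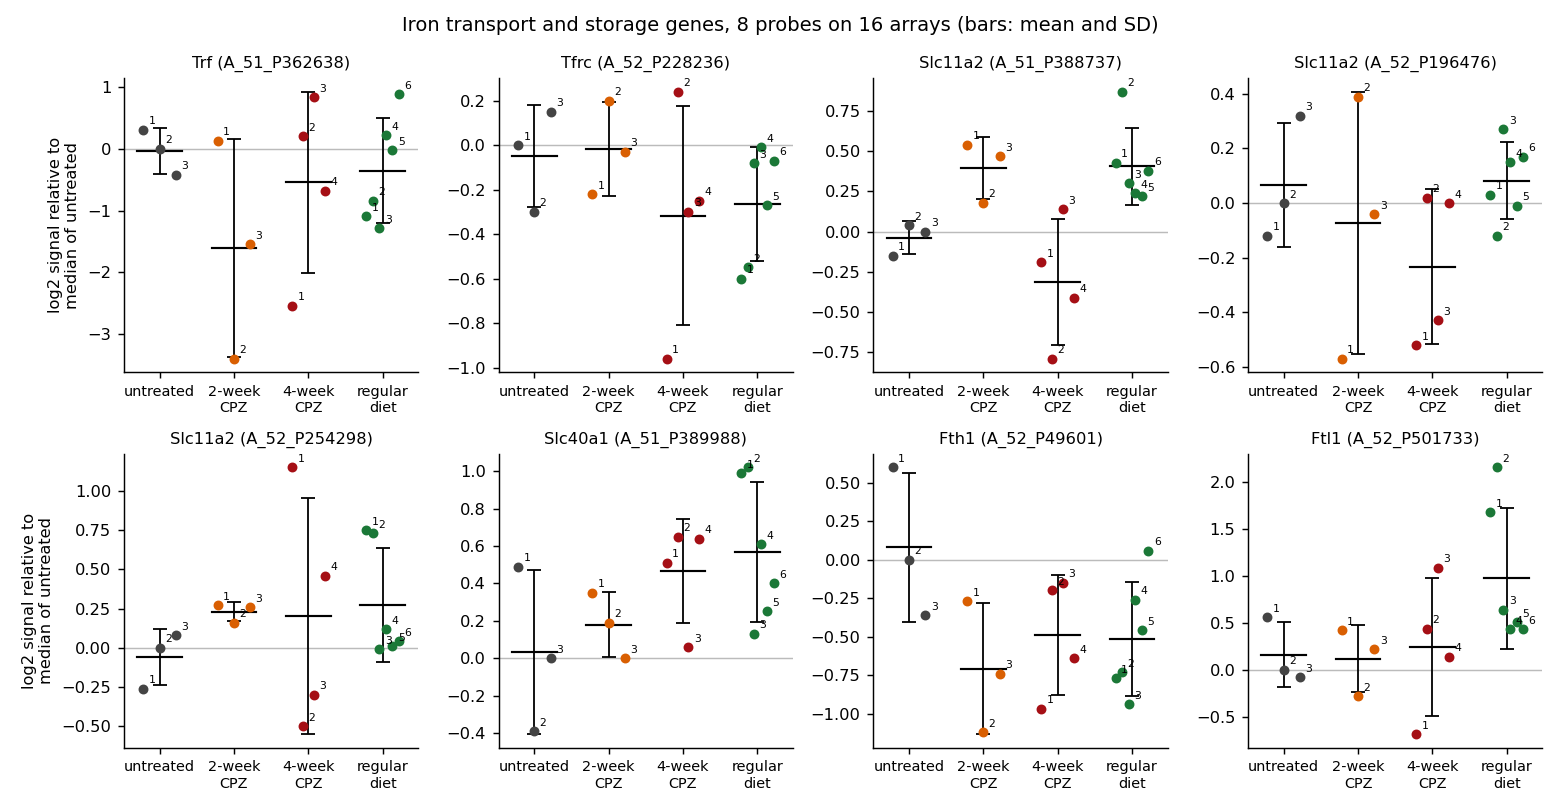
Values of the 8 probes on the 16 arrays, in log2 units relative to the untreated median, with 1 numbered point per array and bars for the mean and SD of each group. Each panel has its own vertical scale: Trf spans -3.4 to 0.88, while the 3 probes of Slc11a2 stay between -0.79 and 1.15.

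Ferritin stores iron in shells of heavy chains, which oxidise it, and light chains, which help to lay down the mineral core. Fth1, the heavy chain, stood at 0.6, 0 and -0.36 on the untreated arrays. After 2 weeks of CPZ it stood at -0.27, -1.12 and -0.74, and after 4 weeks at -0.97, -0.2, -0.15 and -0.64. On regular diet it ranged from -0.94 through a median of -0.59 to 0.06. All 7 CPZ arrays and 5 of 6 regular-diet arrays were below the untreated median, and each of these groups still overlapped the untreated arrays. Within the untreated, 2-week and 4-week groups, the arrays ranked alike in Fth1 and in the median of the oligodendrocyte markers. On regular diet they did not: replicate 3 was lowest in Fth1 (-0.94) and replicate 1 in these markers (-3.88). The part of these cells in the Fth1 values was not tested.

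The mean of Fth1 was 0.08 ± 0.48 (SD, n = 3) in untreated mice, -0.49 ± 0.39 (n = 4) at 4 weeks, -0.52 ± 0.37 (n = 6) on regular diet and -0.71 ± 0.43 (n = 3) at 2 weeks. The difference from untreated at 2 weeks was -0.79 (SE 0.34, 95% interval -1.55 to -0.03, adjusted p = 0.494 by limma), 1.73-fold lower. It was -0.57 at 4 weeks (95% interval -1.28 to 0.14, adjusted p = 0.634) and -0.60 on regular diet (-1.19 to 0.00, adjusted p = 0.473). Within slides the differences were -1.1 at 2 weeks, -0.15 and -0.61 at 4 weeks, and -0.86, -0.33 and -0.26 on regular diet, all below 0. Without untreated replicate 1, the array highest in Fth1, the differences were -0.53, -0.31 and -0.34, and with quantile scaling they were -0.44, -0.64 and -0.44. Under the recorded assignment they were 0.02, -0.25 and -0.63.

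Ftl1, the light chain, stood at 0.56, 0 and -0.08 on the untreated arrays, at 0.42, -0.28 and 0.22 at 2 weeks and at -0.69, 0.44, 1.09 and 0.14 at 4 weeks. On regular diet it ranged from 0.43 through a median of 0.57 to 2.16, and regular-diet replicates 1 and 2 were the 2 highest of the 16 arrays. The mean was 0.12 ± 0.36 (SD, n = 3) at 2 weeks, 0.16 ± 0.35 (n = 3) in untreated mice, 0.24 ± 0.74 (n = 4) at 4 weeks and 0.98 ± 0.75 (n = 6) on regular diet. Regular diet differed from untreated by 0.82 (SE 0.43, 95% interval -0.10 to 1.73, adjusted p = 0.51 by limma), 1.76-fold, and from 4 weeks of CPZ by 0.73 (-0.10 to 1.57, adjusted p = 0.253). Within slides 1, 2 and 3 the difference from untreated was -0.13, 1.3 and 1.18, and under the recorded assignment it was -0.08. At 2 weeks the difference was -0.04 (-0.98 to 0.91) and at 4 weeks 0.09 (-0.80 to 0.97).

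The 2 regular-diet arrays highest in Ftl1 were also the 2 highest in microglia markers. The median of 11 microglia markers, among them Aif1 and Csf1r, was 4.05 and 4.42 on these arrays and between 1.23 and 1.76 on the other 4 regular-diet arrays. It was 0.91, 0 and -0.12 on the untreated arrays, from 0.12 to 1.43 after 2 weeks of CPZ and from 1.02 to 2.09 after 4 weeks. On regular diet 8 of 11 of these markers were higher than in untreated mice at an unadjusted p under 0.05, and 0 were called. Their part in the Ftl1 values was not tested.

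The chains of ferritin were set against each other within each array. The difference of Ftl1 from Fth1 was -0.04, 0 and 0.28 on the untreated arrays (mean 0.08 ± 0.17). It was 0.7, 0.84 and 0.96 at 2 weeks (mean 0.83 ± 0.13), 0.28, 0.63, 1.24 and 0.78 at 4 weeks (mean 0.73 ± 0.4), and 2.45, 2.89, 1.57, 0.69, 0.98 and 0.37 on regular diet (mean 1.49 ± 1.0). All arrays of these 3 groups lay above the untreated arrays, although the lowest 4-week array and the highest untreated array both round to 0.28. The means were higher than in the controls by 0.76 at 2 weeks (exact two-sided permutation p = 0.1), 0.65 at 4 weeks (exact p = 0.0571) and 1.41 on regular diet (exact p = 0.0238), each the smallest p that these numbers of arrays allow. The adjusted values over the 6 tests were 0.1 at 2 weeks and 0.0857 otherwise. Under the recorded assignment the differences were 0.23, 0.49 and 0.55, and within slides they were 0.87 at 2 weeks, 1.24 and 0.0 at 4 weeks, and 0.73, 1.63 and 1.44 on regular diet.

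The start regions of the ferritin chains are shown because these 2 genes, which build 1 protein shell, are the members set against each other. RefSeq promoter windows on GRCm38.p6 were found for 3 of the 6 members (Tfrc, Fth1 and Ftl1), and the 250 bases before the start site are printed in the direction of the gene. Fth1 has 2 listed starts, of which the downstream one is shown as chr19:9982396-9982645 on the plus strand, and Ftl1 is shown as chr7:45459887-45460136 on the minus strand. Capitals mark matches, on either strand, to the CCAAT box (CCAAT), the GC box (GGGCGG), the TATA box (TATAAA) and the core of the antioxidant response element (TGACNNNGC).
Fth1: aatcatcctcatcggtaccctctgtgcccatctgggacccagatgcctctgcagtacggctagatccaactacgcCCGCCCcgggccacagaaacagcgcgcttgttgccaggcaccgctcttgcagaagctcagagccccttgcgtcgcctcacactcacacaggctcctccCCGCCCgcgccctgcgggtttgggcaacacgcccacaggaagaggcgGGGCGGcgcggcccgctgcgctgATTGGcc
Ftl1: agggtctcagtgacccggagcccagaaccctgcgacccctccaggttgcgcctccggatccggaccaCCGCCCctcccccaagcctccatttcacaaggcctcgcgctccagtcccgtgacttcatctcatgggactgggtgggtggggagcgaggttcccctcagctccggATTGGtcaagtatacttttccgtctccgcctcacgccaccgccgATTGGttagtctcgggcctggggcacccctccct
The Fth1 window held 1 CCAAT match, 7 bases before the start, and 3 GC boxes. The Ftl1 window held 2 CCAAT matches, 78 and 34 bases before the start, and 1 GC box. Neither window held the letters of the TATA box or of the antioxidant core, while the window of the upstream Fth1 start held 1 TATA match. Among 32851 mouse promoters of this length, 33.8% held CCAAT, 32.7% the GC box, 12.4% the TATA box and 10.2% the antioxidant core. A match describes the letters and does not show that a factor binds there. Sites farther than 250 bases before a start were not searched, so a missing match speaks for the window only.

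The counts of members are read against the share of all probes on the array. After 2 weeks of CPZ, 0 of 8 member probes were called against 0.193% of all probes tested. At an unadjusted p under 0.05 there was 1 member probe (Fth1, lower), where 9.35% of all probes passed, and 2 probes (both of Slc11a2, higher) did not overlap the controls, where 17.3% of all probes did not. After 4 weeks 0 member probes were called (0.175% of all probes), 0 had an unadjusted p under 0.05 (10.1%), and 0 stood apart from the controls (10%). Between 4 and 2 weeks 0 were called (0.0109%), while 1 probe of Slc11a2 had an unadjusted p under 0.05 (10.5%) and the same probe did not overlap (13.8%).

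On regular diet against untreated, 0 of 8 member probes were called (0.803% of all probes), 2 had an unadjusted p under 0.05 (Slc11a2 and Slc40a1, both higher, against 10.6% of all probes), and 1 did not overlap (Slc11a2, against 8.7%). On regular diet against 4 weeks of CPZ, 0 were called (0.0036%), 1 probe of Slc11a2 had an unadjusted p under 0.05 (24.7%) and the same probe did not overlap (7.63%). By the brightest probe of each gene, the median difference over the 6 members was 0 at 2 weeks, -0.27 at 4 weeks and 0.12 on regular diet against untreated, beside 0.05, -0.04 and -0.01 over all genes tested. These comparisons share the untreated or the 4-week arrays and are not independent of each other.

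**Figure D4:**
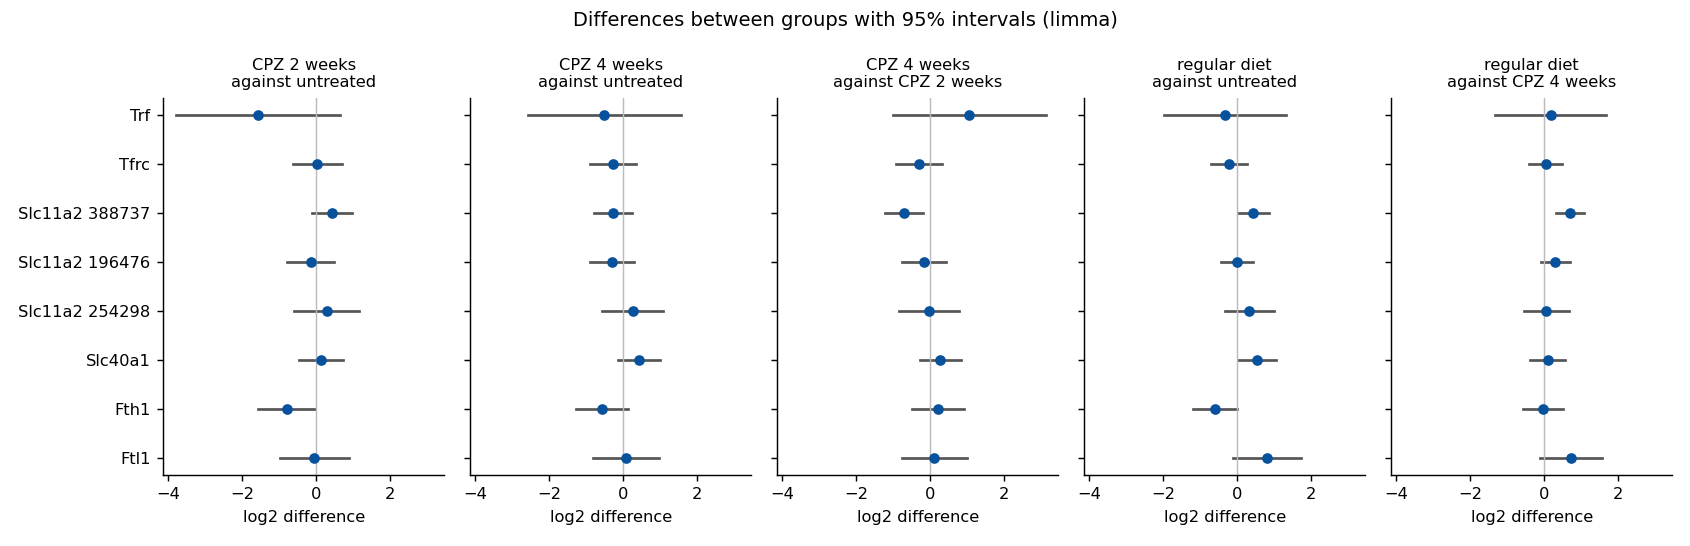
Log2 differences of the 8 probes in the 5 comparisons, as points with 95% intervals from limma, probes of Slc11a2 named by their last digits. The widest intervals are those of Trf, and the interval of Slc11a2 probe A_51_P388737 for regular diet against CPZ 4 weeks, 0.33 to 1.1, lies farthest from 0 relative to its width.

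Other genes of iron and haem handling were taken from lists of 62 genes, of which 54 were tested. Against untreated, 0 of 54 were called at 2 weeks and 0 at 4 weeks, and 1 was called on regular diet, beside 0.211%, 0.181% and 0.879% of all genes by their brightest probe. With an unadjusted p under 0.05, 6 genes were higher and 3 lower in each CPZ group, and on regular diet 6 were higher and 2 lower. These were 16.7%, 16.7% and 14.8% of the 54 genes, beside 9.55%, 10% and 10.5% of all genes. At 2 weeks 2 of the 6 higher genes, Hpx and the haemoglobin scavenger receptor Cd163, were not well above background on all arrays of both groups, so that 4 higher genes remain without them. The median difference of the 54 genes was 0.09, 0.09 and -0.01 in these comparisons. Between 4 and 2 weeks 0 were called (0.0147% of all genes), with 3 genes higher and 2 lower by the unadjusted p (11.3%), among them Hpx and Scara5, neither of them well above background on all of these arrays. Between regular diet and 4 weeks 0 were called (0.00485%), with 4 higher and 2 lower by the unadjusted p (26.7%).

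The gene called was Slc11a1, the relative of Slc11a2 that exports divalent metals from the phagosomes of macrophages and microglia. It stood at 0.42, 0 and -0.11 on the untreated arrays and ranged from 2.24 to 4.86 on regular diet, with no overlap. It was 4.54 and 4.86 on regular-diet replicates 1 and 2 and 2.24 to 2.84 on the other 4 arrays, and the median of the microglia markers was 4.05 and 4.42 on those 2 arrays and 1.23 to 1.76 on the others. The part of these cells in the Slc11a1 values was not tested. Slc11a1 rose by 3.13 on regular diet (SE 0.58, adjusted p = 0.0215 by limma). The difference of Slc11a1 was not called without untreated replicate 1, 2 or 3 (adjusted p = 0.069, 0.121 and 0.141), with normexp (2.03, adjusted p = 0.108), with the replicate block (adjusted p = 0.077), with only the 2 groups compared (0.0811), with the test named in the methods of the study (0.12) or with the arrays as recorded (0.64, adjusted p = 0.869). After 2 weeks of CPZ it differed by 1.79 (adjusted p = 0.16), after 4 weeks by 1.93 (adjusted p = 0.112), and the arrays of each CPZ group also lay above all untreated arrays. Of the 12 genes tested for uptake and reduction of iron, it alone was called. Cybrd1, a ferric reductase, differed by 1.45 both at 4 weeks (adjusted p = 0.344) and on regular diet (adjusted p = 0.139), and its other 2 probes by 0.87 and 1.097 at 4 weeks and by 1.13 and 0.875 on regular diet. Steap2, a metalloreductase, differed by 1.01 at 4 weeks (adjusted p = 0.153), and Slc39a14, a transporter of zinc and iron, by 0.63 on regular diet (adjusted p = 0.401).

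**Figure D5:**
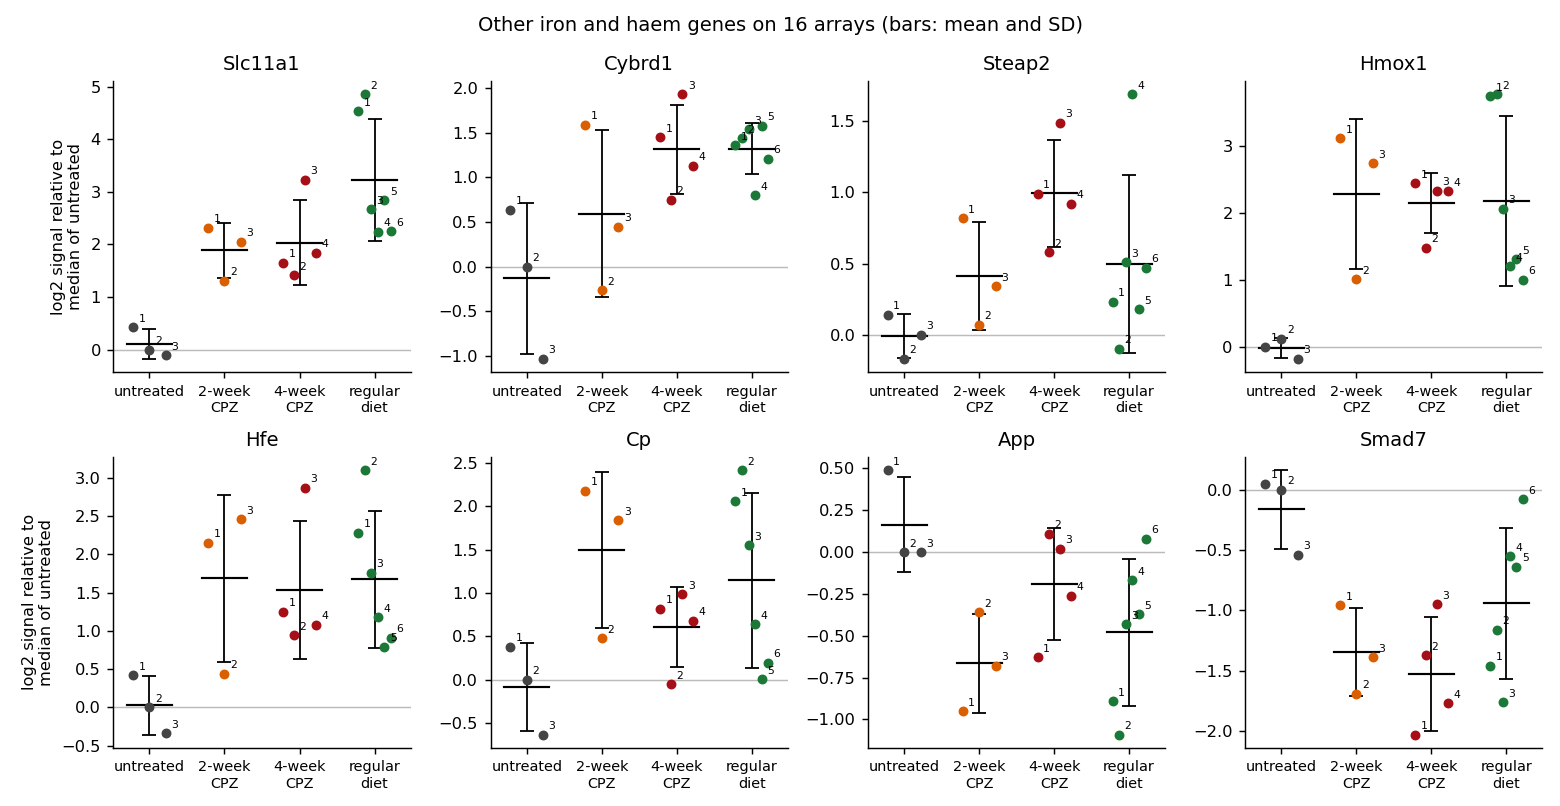
Values of 8 other genes of iron and haem handling on the 16 arrays, in log2 units relative to the untreated median, with 1 numbered point per array and bars for the mean and SD of each group. Slc11a1, Hmox1 and Hfe lie above all untreated arrays in each of the other groups, and only Slc11a1 on regular diet passed the test.

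Among the haem genes, Hmox1, the inducible enzyme that frees iron from haem, stood at 0, 0.12 and -0.18 on the untreated arrays and at 3.11, 1.01 and 2.74 at 2 weeks. It ranged from 1.48 to 2.44 at 4 weeks and from 1.0 to 3.77 on regular diet, so none of these arrays overlapped the controls. The differences were 2.31, 2.16 and 2.20 (adjusted p = 0.101, 0.105 and 0.166 by limma), and none was called. On regular-diet replicates 1 and 2, the arrays highest in microglia markers, Hmox1 was 3.74 and 3.77, against 1.0 to 2.06 on the others. The part of microglia in the Hmox1 values was not tested. Hpx, the haem carrier hemopexin, was well above background on all 3 arrays at 2 weeks, but on 1 of 3 untreated, 1 of 4 4-week and 2 of 6 regular-diet arrays, so it was bright enough to be tested only through the 2-week group and no value is given. Flvcr1, a haem exporter, differed by 0.73 between regular diet and 4 weeks (adjusted p = 0.118).

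Of the partners of iron export, Cp, the copper-dependent ferroxidase ceruloplasmin that works with ferroportin, differed from untreated by 1.58 at 2 weeks (SE 0.47, adjusted p = 0.223 by limma). It stood at 2.18, 0.48 and 1.84 there, above the untreated values of 0.38, 0 and -0.63. App, whose protein has been tied to ferroportin, differed by -0.83 at 2 weeks (adjusted p = 0.262) and by -0.64 on regular diet (adjusted p = 0.397). Among the regulators, Smad7, an inhibitor of the signalling that controls hepcidin, differed by -1.18 at 2 weeks (adjusted p = 0.176) and by -1.37 at 4 weeks (adjusted p = 0.108). Hfe, a partner of the transferrin receptor, differed by 1.64 on regular diet (adjusted p = 0.301). None of these was called.

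Of the 11 mitochondrial iron genes tested, none was called in any comparison. Fdxr, ferredoxin reductase, differed from untreated by -0.45 at 4 weeks (adjusted p = 0.311 by limma) and between regular diet and 4 weeks by 0.38 (adjusted p = 0.154). Slc25a37, mitoferrin, gave -0.67 between 4 and 2 weeks (adjusted p = 0.471) and 0.53 between regular diet and 4 weeks (adjusted p = 0.176) by its brightest probe, but -0.06 and 0.08 by its other probe. Scara5, a receptor for ferritin, was well above background on all 4 arrays at 4 weeks, but on 0 of 3 untreated, 1 of 3 2-week and 3 of 6 regular-diet arrays, so no value is given for it either.

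For each member, the genes whose values ran most like it over the 16 arrays were found by Pearson's r among 13972 genes. All points share the scaling of their array, so r is given as a description only. Nearest to Trf were Bcas1, Erich3 and Cd82, each with r = 0.95. Bcas1, a gene of early myelinating oligodendrocytes, stood at -3.47 on the 2-week array where Trf was -3.4, and at 0.37 on the 4-week array where Trf was 0.84. Nearest to Fth1 were Ehd1 (0.96), Tmem229a (0.95) and Nab1 (0.95), and nearest to Ftl1 were Tcn2 (0.98), a carrier of vitamin B12, the lysosomal fucosidase Fuca1 (0.96) and Cenpx (0.96). Tcn2 reached 2.24 and 2.62 on the 2 regular-diet arrays where Ftl1 was 1.68 and 2.16.

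The remaining members had nearest genes of other kinds. Tfrc ran with Ahcyl1 (r = 0.93), the clock gene Arntl (0.91) and the endothelial receptor Tek (0.91), and on 4-week replicate 1, where Tfrc was -0.96, Ahcyl1 and Arntl stood at -1.37 and -1.86 and Tek was not well above background. Slc11a2, by its brightest probe, ran with Nemp1 (0.93), the lysosomal cystine transporter Ctns (0.93) and Trmt2a (0.91). Slc40a1 had the lowest values of likeness, with Rab19 (0.9) and Hhex (0.85) among its nearest genes, of which Rab19 was well above background on 1 of 3 untreated arrays. Among the members themselves, Trf and Fth1 ran most alike (r = 0.83).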

How the data were processed

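The authors hybridised Cy3-labelled RNA to 4x44K arrays and deposited spot intensity files from the scanner software, Agilent Feature Extraction 11.0.1.1 (version per the labels), in which the processed signal is already background-subtracted. They also deposited a table of log2 values per probe. Its scale was found from the values: each column was the matched array's log2 signal minus that of its 75th percentile, within a median absolute difference of at most 0.00255, minus the median of the 3 untreated columns, which was 0 for 100.0% of probes. Its column medians ran from -0.173 to 0.045. No genome build is given for the array data in the sources used here. Names therefore came from accessions matched to RefSeq genes, for 27471 of 41174 probes (66.7%). RefSeq on GRCm38.p6 also gave the promoter windows printed, and no array value was placed by coordinates. Of the probes, 21 had no value in the table.

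The table values were tested with limma 3.58.1 in R 4.3.3. A probe entered a fit where 1 group or more had it well above background on all of its arrays. The CPZ comparisons used the 10 arrays of 3 groups (27498 probes, 7 residual and 2.19 prior degrees of freedom, median residual SD 0.398), and those of regular diet used all 16 (27778 probes, 12 and 2.33, 0.386). No member was lost to the filter. Arrays carry no read depth, and their number limits the precision. The methods of the study name an ANOVA with Tukey's test and a 2-fold limit, which was run as an alternative. The other alternatives were the scanner signal under both assignments, quantile and median scaling, normexp on the median signal (offset 50), other filters on dim probes, the slide or replicate number as a block, other sets of arrays and each array left out in turn. For a gene with several probes the brightest stands for it.

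From the other iron lists, a gene was named if called in any comparison or among the 6 smallest p in one, and for each member the 3 genes with the highest r were named. Some results that the rule selects are not reported here. On simulated data of the 4-week fit, 74% of probes changed by 2 log2 units and 78% of those changed by 3 were recovered, and in the regular-diet fit 73 and 89%. False calls numbered 11 and 9. Smaller changes, such as all those of the members, were not simulated. In the data, 0 of 11 oligodendrocyte markers were called at 4 weeks, although their median difference was -2.75. The simulated shares therefore do not give the power for real changes. The members, lists and tests were chosen with earlier results of these data known. The within-array differences, and the settings under which they were repeated, were chosen after seeing the data. Exact tests used scipy 1.17.1.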

Additional observations from a re-analysis of the deposited data

Results flagged for a closer look

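Of 48 groups of 4 or 6 arrays examined for the member probes and the named iron genes, 4 held an array set apart from the rest of its group, where chance flags about 1 in 20 groups. The brightest Slc11a2 probe stood at 0.87 on regular-diet replicate 2, while the other 5 arrays of that group lay at 0.43 or below. Hfe stood at 2.87 on 4-week replicate 3. Hmox1 stood at 1.48 on 4-week replicate 2, below the other arrays of its group. Steap2 stood at 1.69 on regular-diet replicate 4.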

How the results depend on the processing

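None of the 8 member probes was called under any of the 130 pairs of a comparison and an alternative. These pairs are not independent of each other or of the main fit. The scanner signal of the matched arrays, for example, repeats the table values within a median absolute difference of 0.00255. Of 1000 member values under the alternatives, 912 kept their direction and 88 took the opposite direction, 23 of them with the arrays as recorded and 33 with 1 array left out. The cause was not tested. Many of the 912 could not turn, so their number overstates stability. Changing only the filter, the test or an array outside the compared groups leaves the difference itself the same. For Trf at 2 weeks it stayed at -1.57 in each such case. With the scanner arrays assigned as recorded, the values of opposite direction were Trf 1.02, Slc11a2 (A_51_P388737) -0.03, Slc11a2 (A_52_P196476) 0.21, Tfrc -0.05, Slc11a2 (A_52_P254298) -0.14, Fth1 0.02, Ftl1 0.25 and Trf minus the oligodendrocyte markers -0.23 for 2 weeks against untreated, Trf 0.05, Slc40a1 -0.06, Slc11a2 (A_52_P196476) 0.29 and Trf minus the oligodendrocyte markers -0.54 for 4 weeks against untreated, Trf -0.97, Slc11a2 (A_51_P388737) 0.03, Slc40a1 -0.14, Slc11a2 (A_52_P196476) 0.08, Slc11a2 (A_52_P254298) 0.25, Fth1 -0.27 and Ftl1 0 for 4 against 2 weeks, Slc11a2 (A_51_P388737) -0.36 and Ftl1 -0.08 for regular diet against untreated and Trf -1.15, Slc11a2 (A_51_P388737) -0.36, Slc11a2 (A_52_P196476) -0.02 and Ftl1 -0.33 for regular diet against 4 weeks. With normexp, the values of opposite direction were Slc11a2 (A_52_P254298) -0.12 and Ftl1 0.18 for 2 weeks against untreated, Slc11a2 (A_52_P254298) -0.05 for 4 weeks against untreated, Slc11a2 (A_52_P196476) 0.01, Slc11a2 (A_52_P254298) 0.07 and Ftl1 0 for 4 against 2 weeks, Slc11a2 (A_52_P196476) -0.18 and Slc11a2 (A_52_P254298) -0.2 for regular diet against untreated and Slc40a1 -0.02, Tfrc -0.01, Slc11a2 (A_52_P254298) -0.15 and Fth1 0.03 for regular diet against 4 weeks. With quantile scaling, the values of opposite direction were Ftl1 0.07 for 2 weeks against untreated, Slc11a2 (A_52_P254298) 0.31, Fth1 -0.21 and Ftl1 -0.01 for 4 against 2 weeks, Slc11a2 (A_52_P196476) -0.05 for regular diet against untreated and Slc40a1 0, Slc11a2 (A_52_P254298) -0.28 and Fth1 0.21 for regular diet against 4 weeks. With median centring, the values of opposite direction were Ftl1 0.07 for 2 weeks against untreated and Fth1 0.01 for regular diet against 4 weeks. With the slide as a fixed block, the values of opposite direction were Slc40a1 -0.19 and Tfrc -0.21 for 2 weeks against untreated, Trf 0.06 for 4 weeks against untreated, Slc11a2 (A_52_P196476) -0.07 for regular diet against untreated and Trf -0.15 and Slc11a2 (A_52_P254298) -0.02 for regular diet against 4 weeks. With the slide as a random block, the values of opposite direction were Tfrc -0.05 for 2 weeks against untreated and Slc11a2 (A_52_P196476) -0.01 for regular diet against untreated. With the replicate block, the values of opposite direction were Slc11a2 (A_52_P196476) -0.03 for regular diet against untreated and Trf -0.2 for regular diet against 4 weeks. With 1 array left out, Ftl1 -0.19 to 0.16, Slc11a2 (A_52_P196476) -0.37 to 0.11, Slc40a1 -0.07 to 0.37 and Tfrc -0.09 to 0.14 for 2 weeks against untreated, Ftl1 -0.2 to 0.4, Slc11a2 (A_52_P254298) -0.05 to 0.5 and Trf -0.97 to 0.16 for 4 weeks against untreated, Ftl1 -0.16 to 0.43, Slc11a2 (A_52_P196476) -0.4 to 0.08 and Slc11a2 (A_52_P254298) -0.34 to 0.21 for 4 against 2 weeks, Slc11a2 (A_52_P196476) -0.08 to 0.14 for regular diet against untreated, Fth1 -0.19 to 0.09, Slc11a2 (A_52_P254298) -0.16 to 0.39, Slc40a1 -0.03 to 0.19, Tfrc -0.16 to 0.24 and Trf -0.48 to 0.65 for regular diet against 4 weeks were the ranges that crossed 0. Of the 40 member differences, 31 moved by over 1.5 times or crossed 0 without 1 of the arrays, and the other 9 were all 4 of Slc11a2 (A_51_P388737) other than 4 weeks against untreated, Slc11a2 (A_52_P196476) for regular diet against 4 weeks, Slc11a2 (A_52_P254298) and Ftl1 for regular diet against untreated, Slc40a1 for 4 against 2 weeks and Fth1 for 2 weeks against untreated.

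For 2 weeks against untreated 49 genes were called in the whole table, and 0 with arrays as recorded, the replicate block, only the 2 groups and the methods' test, 26 with all 16 arrays, 32 with median centring, 80 with a filter on all arrays, 85 with normexp, 115 with the slide as a fixed block and 280 with the slide as a random block, while leaving out 1 array gave 1 to 67. For 4 weeks against untreated 44 genes were called in the whole table, and 0 with arrays as recorded, the replicate block and the methods' test, 3 with all 16 arrays, 13 with no filter, 18 with quantile scaling, 189 with only the 2 groups, 368 with the slide as a random block and 432 with the slide as a fixed block, while leaving out 1 array gave 0 to 160. For 4 against 2 weeks 3 genes were called in the whole table, and 0 with arrays as recorded, a filter on all arrays, normexp, the slide as a fixed block, the replicate block and the methods' test, 5 with no filter, 24 with only the 2 groups and 58 with all 16 arrays, while leaving out 1 array gave 0 to 52. For regular diet against untreated 195 genes were called in the whole table, and 0 with arrays as recorded, 11 with the methods' test, 21 with the replicate block, 36 with normexp and 103 with a filter on all arrays, while leaving out 1 array gave 5 to 210. For regular diet against 4 weeks 1 gene was called in the whole table, and 0 with arrays as recorded, a filter on all arrays, normexp, the slide as a fixed block and the replicate block, 3 with the methods' test, 6 with median centring, 8 with no filter and the slide as a random block, 49 with only the 2 groups and 320 with quantile scaling, while leaving out 1 array gave 0 to 1506. The call of Slc11a1 on regular diet was lost with the replicate block (3.73, adjusted p = 0.077), with only the 2 groups (0.0811) and with the methods' test (0.12), and its difference between 4 and 2 weeks turned to -0.68 with the arrays as recorded and ranged from -0.25 to 0.36 with 1 array left out. The lowest and highest of these counts came without untreated replicate 1 (1) and 4-week replicate 1 (67) for 2 weeks against untreated, and without 4-week replicate 1 (1506) for regular diet against 4 weeks. Replicate numbers did not pair the arrays (correlations of same-numbered deviations -0.8 to 0.34), and the replicate block called 0 members. With the best-matching number, the correlations were 0.74 to 0.78 for the untreated and the 4-week arrays. They were 0.24 to 0.45 for the arrays of the other groups. The untreated and 4-week arrays are thus not shown to vary independently, and the source of this likeness was not tested.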
